A study of Mus musculus with 16 samples.

Results

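The Cyp2a and Cyp2b genes encode cytochrome P450 enzymes of the liver that lie together on mouse chromosome 7. Cyp2a4, Cyp2a5, Cyp2a12, Cyp2a22, Cyp2b9, Cyp2b10 and Cyp2b13 are described here, 7 of the 20601 genes listed in an RNA-seq study of mouse liver tumors and of the 50 listed Cyp2 genes, pseudogenes included. They were chosen by symbol, with earlier results of these data known. Their levels, differences and calls are therefore given as a description with no p-value. Each mouse had received 19 µg of a plasmid expressing human N-Ras, 1 µg of one expressing human c-Myc and 2 µg of one expressing the Sleeping Beauty transposase, an enzyme that inserts the transgenes into the DNA of the liver cells they reach. From week 4 the mice ate a normal diet (ND) or a ketogenic diet (KD; 0.1% carbohydrate, 89.5% fat, 10.4% protein), and tissue was taken at week 8. Tumor and nontumor liver of 8 mice gave 4 groups of 4 libraries: ND nontumor, ND tumor, KD nontumor and KD tumor. Nontumor liver therefore comes from plasmid-injected, tumor-bearing mice, and no liver without plasmids was analysed here. Strain, age and sex are not given in the sources used here. Xist, which is transcribed in female cells, was at most 0.126 TPM in the 16 libraries, and Ddx3y, a Y-linked gene, was 3.27 to 28.4 TPM.

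Cytochrome P450 enzymes sit in the endoplasmic reticulum, carry a heme group and oxidise fat-soluble substrates with electrons passed on by the reductase Por. Cyp2a5 is the mouse coumarin hydroxylase and the counterpart of human CYP2A6, which oxidises nicotine, whereas its near copy Cyp2a4 hydroxylates steroids. Cyp2a12 hydroxylates bile acids. Cyp2b10 is the classical gene induced by phenobarbital through the nuclear receptor CAR (encoded by Nr1i3). Cyp2a4, Cyp2b9 and Cyp2b13 are known for higher expression in the liver of female than of male mice, a pattern set by growth hormone and its transducer STAT5B.

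Several of these genes are near copies, which matters for how their reads were split. The span from Cyp2b10 to Cyp2a12 covers 1140 kb of chromosome 7 (GRCm38, 25897620 to 27037375, GENCODE M21) and holds 15 protein-coding genes, 7 of them those described here. The coding sequences of Cyp2a4 and Cyp2a5 differed at 23 of 1482 aligned bases (98.4% identity), those of Cyp2a12 and Cyp2a22 were 97.0% identical, and those of Cyp2b9 and Cyp2b13 were 92.7% identical. Of all 100-base windows in the Cyp2a4 transcripts, 11.2% also occur in another Cyp2 transcript, compared with 14.4% for Cyp2a5 and 1.18% each for Cyp2b9 and Cyp2b13. How the authors' counting assigned reads from such windows is not given in the sources used here, so the split between copies is uncertain. Cyp2a22 lies within the pseudogene Cyp2a21-ps on the other strand, Cyp2a4 overlaps the antisense gene Gm42375 by 118 bases, and Cyp2b13 overlaps the pseudogene Rnf170-ps. Strand use in counting is not given either.

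The promoters of the near copies are shown because the Cyp2b9 and Cyp2b13 pair was low or 0 in ND nontumor liver and higher in ND tumor, while Cyp2a4 and Cyp2a5 went apart. Each sequence runs from 250 bases before to 50 bases after the annotated start (RefSeq, GRCm38.p6, plus strand), and all 7 genes had an entry. Capitals mark the bases that differ within a pair. The Cyp2a4 promoter (chr7:26306942-26307241) and the Cyp2a5 promoter (chr7:26835089-26835388) differ at 5 of 299 aligned bases.
Cyp2a4: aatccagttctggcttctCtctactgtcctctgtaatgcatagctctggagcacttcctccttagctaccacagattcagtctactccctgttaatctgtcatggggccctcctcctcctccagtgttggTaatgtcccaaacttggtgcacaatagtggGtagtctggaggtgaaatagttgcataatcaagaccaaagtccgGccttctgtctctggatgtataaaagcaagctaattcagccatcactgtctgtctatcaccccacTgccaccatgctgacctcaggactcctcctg
Cyp2a5: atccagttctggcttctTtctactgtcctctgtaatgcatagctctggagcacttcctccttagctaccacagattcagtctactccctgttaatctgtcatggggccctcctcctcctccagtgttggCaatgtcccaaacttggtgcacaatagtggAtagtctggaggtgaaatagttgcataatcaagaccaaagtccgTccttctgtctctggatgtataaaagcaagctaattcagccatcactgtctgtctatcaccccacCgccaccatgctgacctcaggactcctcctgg
The Cyp2b9 promoter (chr7:26173159-26173458) and the Cyp2b13 promoter (chr7:26061245-26061544) differ at 2 of 300 aligned bases.
Cyp2b9: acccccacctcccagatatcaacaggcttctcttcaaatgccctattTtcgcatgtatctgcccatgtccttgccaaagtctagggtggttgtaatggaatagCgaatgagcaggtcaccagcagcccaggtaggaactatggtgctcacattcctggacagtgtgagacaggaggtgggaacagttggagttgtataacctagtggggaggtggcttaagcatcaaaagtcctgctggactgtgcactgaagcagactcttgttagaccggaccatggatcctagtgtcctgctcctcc
Cyp2b13: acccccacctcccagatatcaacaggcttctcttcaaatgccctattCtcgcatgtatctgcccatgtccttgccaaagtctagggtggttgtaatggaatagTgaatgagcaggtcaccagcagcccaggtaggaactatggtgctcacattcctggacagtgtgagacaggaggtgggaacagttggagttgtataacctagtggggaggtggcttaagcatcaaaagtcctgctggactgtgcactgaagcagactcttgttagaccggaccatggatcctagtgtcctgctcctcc
The Cyp2a12 and Cyp2a22 promoters are 90.3% identical, and those of Cyp2b9 and Cyp2b10 are 77.2% identical. Among the motifs searched on both strands, TATAAA occurred in the 4 Cyp2a promoters and in no Cyp2b promoter, against 13.6% of all 32817 promoters of this length. It begins 28 bases before the start in Cyp2a4 and 29 bases before it in Cyp2a5. TTGCATAA occurred in Cyp2a4, Cyp2a5 and Cyp2b10 (0.744% of all promoters), and CAAAGTCC in Cyp2a4 and Cyp2a5 (1.42%). TTCNNNGAA, the letters of the STAT consensus, occurred in none of the 7 windows and in 8.29% of all promoters. These letters were chosen with the sequences in view. The promoters of Cyp2a4 and Cyp2a5 thus hold the same searched motifs at almost the same places, and the Cyp2b9 and Cyp2b13 promoters hold none of them.

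Values below are rescaled TPM, that is, the deposited TPM (transcripts scaled to a fixed total and per length) divided by a median-of-ratios factor per library, a scale on which the median gene does not move between libraries. Reads recovered over the listed genes, in units of 1000000, were 3.52 to 14.07 per library. The listed genes held 7.38% of the TPM total in ND nontumor 4 and 49.96% to 88.45% elsewhere. The values of that library were therefore divided by 0.128, against 0.937 to 1.522 for the others. Results that rest on that library are also given without it. A difference is on the log2(rescaled TPM + 1) scale ± SE from limma fitted over all 16 libraries with 4 in each group, and the added 1 makes it smaller for low genes. Genes at 1 TPM or more in at least 4 libraries were tested, 13202 in all, with 6 of the 7 members among them (Cyp2b10 was below). In bulk tissue, fewer cells of a type and less RNA per cell cannot be told apart. The 6 hepatocyte markers, Alb among them, summed to 41400 to 78100 TPM in ND nontumor, 57700 to 109000 TPM in ND tumor, 26700 to 77500 TPM in KD nontumor and 111000 to 158000 TPM in KD tumor libraries. Their sum was thus higher in every KD tumor than in any other library, and no marker was at 0 in every library of a group. Alb, Apoa1, Apob and Fgb had higher means in KD tumor than in KD nontumor liver. Ttr (6214 against 6679 TPM) and Serpina1c (2344 against 2459 TPM) did not.

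Cyp2a4 passed from a minor transcript in nontumor liver to the highest of all Cyp2 genes in ND tumor. Its level was 4.45, 2.02, 4.97 and 56.8 TPM in ND nontumor 1 to 4 and 876, 1241, 1103 and 447 TPM in ND tumor 1 to 4. Every ND tumor library lay above every ND nontumor library. On the ketogenic diet it was 60.9, 108, 11.4 and 16.9 TPM in nontumor liver and 1724, 244, 238 and 142 TPM in tumor. The KD groups did not overlap either, and KD tumor 1 stood apart from the other 3 tumors. Group means ± SD (n = 4) were 17.1 ± 26.5 and 917 ± 347 TPM on ND and 49.2 ± 44.9 and 587 ± 759 TPM on KD. The tumor minus nontumor difference was 6.62 ± 0.90 on ND and 3.31 ± 0.90 on KD. Without ND nontumor 4 the former was 7.58, and without KD tumor 1 the latter was 2.54.

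Cyp2b9 moved with Cyp2a4 from a lower base. It was 0.393, 0, 1.21 and 13.8 TPM in ND nontumor 1 to 4, and 126, 231, 187 and 70.1 TPM in ND tumor 1 to 4. In KD nontumor liver it was 15.3, 65.6, 15.3 and 6.86 TPM, and in KD tumor 255, 99.2, 111 and 153 TPM. The tumor libraries lay above the nontumor libraries on each diet, and the mean level of the ND tumors (154 ± 70.3 TPM, SD, n = 4) was close to that of the KD tumors (155 ± 70.9 TPM). The difference was 5.76 ± 0.73 on ND and 2.91 ± 0.73 on KD. It was 6.74 on ND without ND nontumor 4 and 3.50 on KD without KD nontumor 2.

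Cyp2b13, whose promoter is nearly that of Cyp2b9, was at 0 in all 4 ND nontumor libraries. In ND tumor 1 to 4 it was 3.72, 20.7, 2.00 and 0.145 TPM, the last from 2 reads. Its mean of 6.64 TPM there was at least 15.4-fold higher than the level 3 reads in each ND nontumor library would give. Without ND tumor 2, which carries most of that mean, the bound was 4.5-fold. KD nontumor libraries held 0.489, 11.6, 0 and 0 TPM and KD tumor libraries 10.3, 0.37, 0.484 and 10.5 TPM, so these groups overlapped. The difference was 2.11 ± 0.93 on ND, moving to 1.34 without ND tumor 2 and 2.73 without ND tumor 4, and 0.95 ± 0.93 on KD, moving to 1.81 without KD nontumor 2. Cyp2b9 made up 85.0% or more of the TPM of this pair in each library with a read of either, so Cyp2b13 was the minor copy throughout.

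**Figure D1:**
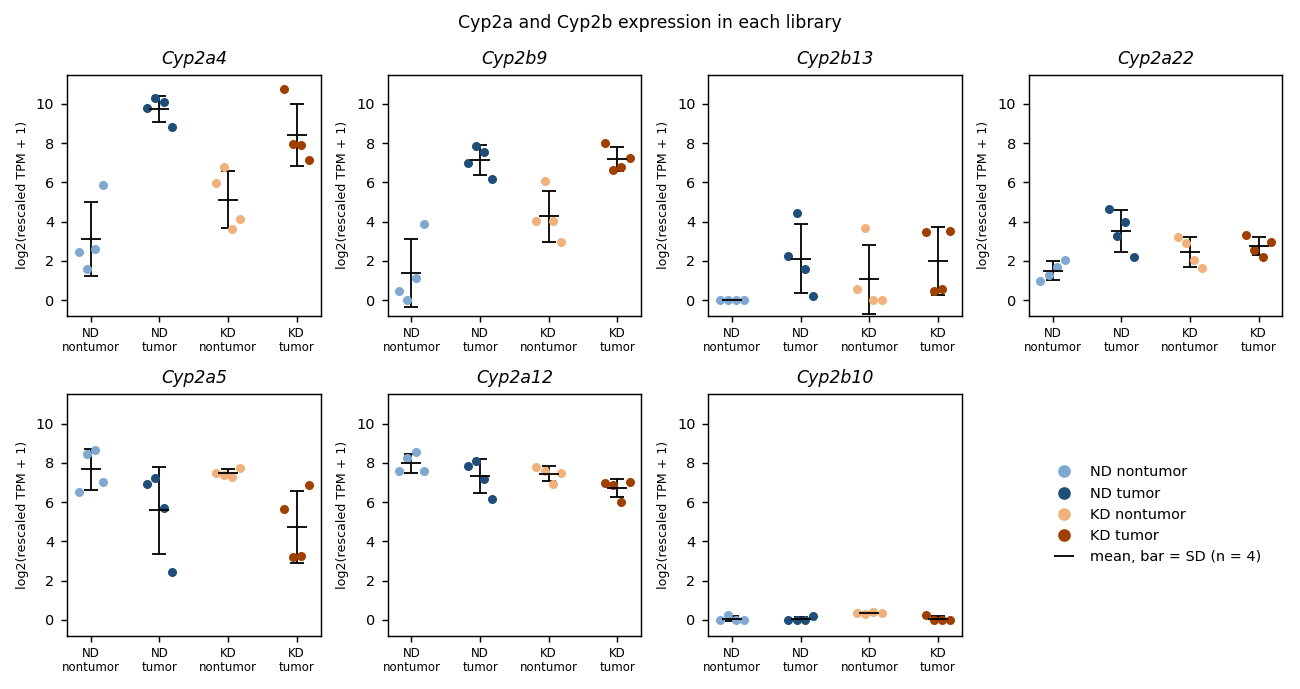
Each point is a library and gives log2(rescaled TPM + 1) on the y axis for the 7 genes, in the 4 groups on the x axis, and black bars give the mean and SD of these log2 values (n = 4). Cyp2a4 and Cyp2b9 lie higher in every tumor than in every nontumor library of the same diet, Cyp2a5 and Cyp2a12 do not, and Cyp2b10 stays near 0.

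Cyp2a5 was high in nontumor liver and lower in most tumors, the opposite of its near copy. Nontumor levels were 91.2, 353, 408 and 128 TPM on ND and 179, 165, 157 and 214 TPM on KD. Tumor levels were 122, 152, 51.0 and 4.38 TPM on ND and 48.9, 8.11, 8.63 and 117 TPM on KD. The ND groups overlapped, because ND tumor 1 and ND tumor 2 lay above ND nontumor 1. The KD groups did not overlap. The differences were -2.09 ± 0.93 on ND and -2.74 ± 0.93 on KD. The ND value was -1.04 without ND tumor 4, and the KD value was -3.45 without KD tumor 4.

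Cyp2a12 was lower in tumors on average on the rescaled values. It was 189, 306, 371 and 193 TPM in ND nontumor and 229, 275, 143 and 71.2 TPM in ND tumor libraries. On KD it was 220, 193, 121 and 180 TPM in nontumor and 127, 115, 64.4 and 129 TPM in tumor libraries. Groups overlapped on each diet, with differences of -0.67 ± 0.37 on ND and -0.73 ± 0.37 on KD. Cyp2a12 thus kept a level of at least 64.4 TPM in all 16 libraries, and on the deposited scale its ND difference was -0.01. Its KD difference was -1.06 with the listed genes scaled to a common sum, where the median of all genes was -0.25. It was -0.95 with sample weights. The KD difference was called in these 2 settings and not in the main fit.

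Cyp2a22, the minor copy of the Cyp2a12 pair, was 0.963, 1.40, 2.27 and 3.14 TPM in ND nontumor and 24.0, 8.67, 14.7 and 3.58 TPM in ND tumor libraries. These groups did not overlap, with a difference of 2.02 ± 0.45. In KD nontumor liver it was 8.42, 6.58, 3.10 and 2.07 TPM, against 8.91, 4.93, 3.61 and 6.72 TPM in KD tumors, an overlapping pair of groups with a difference of 0.30 ± 0.45. Cyp2a12 held 90.5% to 99.5% of the TPM of the pair.

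Cyp2b10, the CAR target, was close to the limit of detection everywhere. The whole of its evidence was 2 reads over the ND nontumor libraries, 2 over ND tumor, 12 over KD nontumor and 3 over KD tumor. Single libraries had 0 to 4 reads and 0 to 0.316 TPM, and 3 reads would correspond to 0.184 to 0.668 TPM. All KD nontumor libraries had 2 to 4 reads, whereas 3 of 4 libraries in each of the other groups had 0. The lowest KD nontumor library (0.210 TPM) lay just above the highest of the others (0.208 TPM, in ND nontumor 2). With so few reads no fold is given.

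Of the 6 members tested, 3 were called higher (Cyp2a4, Cyp2b9 and Cyp2a22) and 0 lower in tumor against nontumor on ND by limma at a Benjamini-Hochberg adjusted p of 0.05, beside 29% of all genes tested. The groups did not overlap for 4 of the 6, beside 27.8% of all genes. For Cyp2b13 this rested on 2 reads in ND tumor 4 against 0 in ND nontumor liver, under the level of 3 reads. On KD 2 were called higher (Cyp2a4 and Cyp2b9) and 1 lower (Cyp2a5), beside 33%, and the groups did not overlap for 3 of the 6, beside 33.5%. The call of Cyp2a5 on KD was lost without any of KD nontumor 1, 3 or 4 or KD tumor 2 or 3, and with no filter. Cyp2b13 on ND was called without ND tumor 4, on the deposited scale (2.13) and with a pseudocount of 0.1 (4.66). The members were chosen on these contrasts, so nothing is read from their counts. The median difference of the 6 was 2.07 on ND and 0.63 on KD, and that of all genes tested was -0.005 and 0.013.

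**Figure D2:**
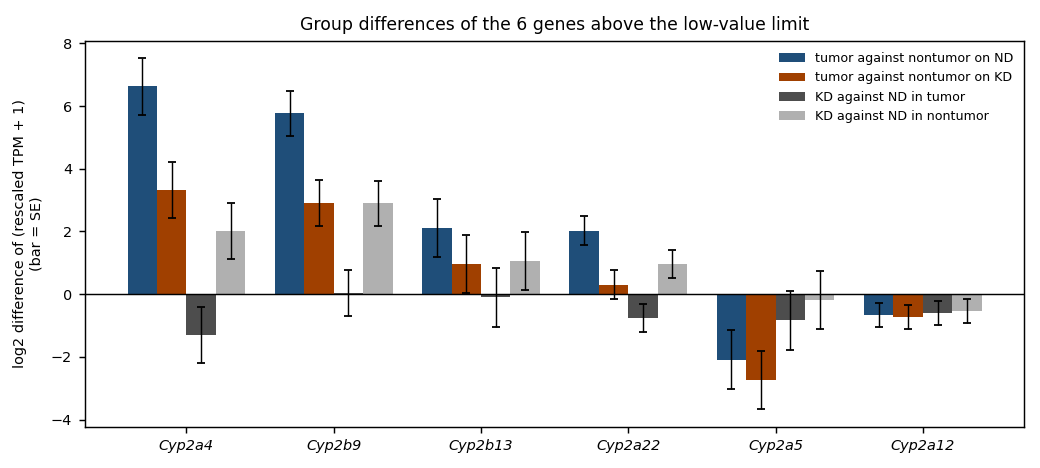
Bars give the log2 difference between group means of log2(rescaled TPM + 1) for the 6 genes tested, in 4 comparisons, with SE as error bars. Cyp2a4 and Cyp2b9 differ most between tumor and nontumor liver on ND (6.62 and 5.76), Cyp2a5 lies below 0 in all 4 comparisons, although its diet difference in nontumor liver (-0.19) is 0.76 on the deposited scale, and Cyp2b9 is level between the diets in tumor (0.04).

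The ratio of Cyp2a4 to Cyp2a5 does not depend on any scaling between libraries. Cyp2a4 made up 4.66%, 0.569%, 1.20% and 30.8% of the TPM of the 2 genes in ND nontumor 1 to 4, and 87.8% to 99.0% in ND tumor. In KD nontumor liver its share was 6.77% to 39.6%, with a median of 16.3%. In KD tumors it was 54.9% to 97.2%, with a median of 96.7%. Each tumor library exceeded each nontumor library, so the leading copy changed from Cyp2a5 to Cyp2a4. ND nontumor 4 stood apart from its group in this share, although its Cyp2a4 level as deposited, before rescaling, was 7.28 TPM.

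The 7 genes together were 286 to 788 TPM in ND nontumor, 597 to 1928 TPM in ND tumor, 308 to 550 TPM in KD nontumor and 426 to 2174 TPM in KD tumor. Their part in the summed TPM of 42 listed Cyp2 genes without pseudogenes was 3.98% to 7.21% in ND nontumor and 28.1% to 52.3% in ND tumor. On KD it was 4.43% to 6.38% in nontumor and 11.9% to 46.3% in tumor. The summed Cyp2 level itself was 7188 to 10930 TPM in ND nontumor and 2119 to 3866 TPM in ND tumor, so the family total was lower in the tumors while the share of these genes was higher.

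**Figure D3:**
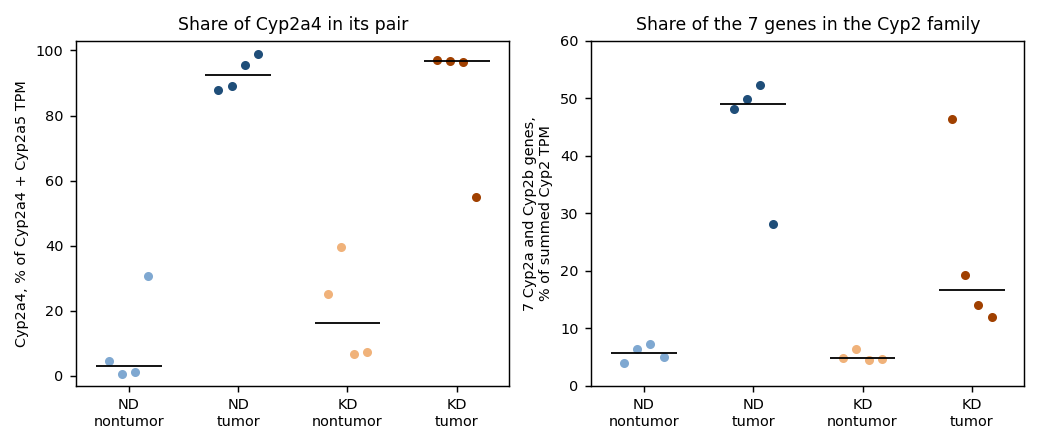
The left y axis gives Cyp2a4 as a percent of the TPM of Cyp2a4 and Cyp2a5, the right one the 7 genes as a percent of the summed TPM of 42 Cyp2 genes, with a point per library in the 4 groups and a line at the median. Shares of Cyp2a4 lie between 0.569% and 39.6% in nontumor and between 54.9% and 99.0% in tumor libraries.

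The order of the members changed with the tissue. In ND nontumor liver Cyp2a12 (265 ± 89.5 TPM, SD, n = 4) and Cyp2a5 (245 ± 159 TPM) led and differed by less than their spread, ranking 11 and 12 among the 42 Cyp2 genes, while Cyp2a4 ranked 24. In ND tumor Cyp2a4 ranked 1, followed among the members by Cyp2a12 (180 ± 90.6 TPM) and Cyp2b9, which differed by less than their spread, and by Cyp2a5 (82.3 ± 67.0 TPM). In KD nontumor liver Cyp2a5 (179 ± 25.5 TPM) and Cyp2a12 (179 ± 41.8 TPM) were level and Cyp2a4 ranked 19. In KD tumor Cyp2a4 ranked 2, next to Cyp2d26 (673 ± 139 TPM), and its spread covered that of Cyp2b9 and Cyp2a12 (109 ± 30.2 TPM). Its mean there (587 TPM) was raised by KD tumor 1 at 1724 TPM, with 142 to 244 TPM in the other KD tumors. Cyp2a22, Cyp2b13 and Cyp2b10 had the lowest 3 means in each group. In ND nontumor this rested on ND nontumor 4, since Cyp2b9 lay below Cyp2a22 in the other libraries and in median (0.80 against 1.84 TPM).

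Between the diets none of the 6 tested members was separated in either tissue on the rescaled values. In tumor the KD minus ND difference was -1.30 ± 0.90 for Cyp2a4, 0.04 ± 0.73 for Cyp2b9, -0.11 ± 0.93 for Cyp2b13, -0.76 ± 0.45 for Cyp2a22, -0.84 ± 0.93 for Cyp2a5 and -0.60 ± 0.37 for Cyp2a12. None of the 6 was called, beside 16% of all genes, and for none did the groups stay apart, beside 23.1%. The overlap in Cyp2a4 came from KD tumor 1 at 1724 TPM, since the other 3 KD tumors lay below all ND tumors, and the difference was -2.08 without that library. Cyp2a5 was -1.89 without ND tumor 4 and -1.55 without KD tumor 4, and Cyp2b13 was 0.67 without ND tumor 2 and -0.74 without ND tumor 4. With a common sum Cyp2a12 was -1.07 and was called, as were 2891 of all genes, whose median was -0.34.

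In nontumor liver the KD minus ND difference was 2.89 ± 0.73 for Cyp2b9, 2.01 ± 0.90 for Cyp2a4, 1.06 ± 0.93 for Cyp2b13, 0.95 ± 0.45 for Cyp2a22, -0.19 ± 0.93 for Cyp2a5 and -0.54 ± 0.37 for Cyp2a12. None of the 6 was called, beside 0.053% of all genes, and none had groups that stayed apart, beside 6.04%. The overlap in Cyp2a4 and Cyp2b9 came from ND nontumor 4, since every other ND nontumor library lay below all KD nontumor libraries. On the deposited scale Cyp2a4 was at most 7.28 TPM on ND and at least 17.3 TPM on KD. Cyp2b9 was at most 1.77 TPM on ND and at least 9.01 TPM on KD on that scale. Both ND maxima were in ND nontumor 4, where the listed genes held 7.38% of the TPM total, so deposited values there are low in general. The median difference of all genes was 0.69 on the deposited scale. The calls are a description only, as the members were chosen with these contrasts known, and they depended on the scale and weights. On the deposited scale Cyp2b9 (3.83) and Cyp2a4 (2.95) were called, and Cyp2a5 (0.76) and Cyp2a12 (0.42) changed sign uncalled. With sample weights Cyp2b9 (4.13), Cyp2a4 (3.67) and Cyp2a22 (1.48) were called. Over all genes, 65 were called on the deposited scale and 465 with sample weights, against 7 in the main fit. Without ND nontumor 4 the values were 3.86 for Cyp2b9, which was then called, and 2.96 for Cyp2a4. Without KD nontumor 2 they were 2.29 for Cyp2b9 and 0.19 for Cyp2b13. For the difference of the diet effect between the tissues, 0 of 6 members and 0.659% of all genes were called, with -3.31 ± 1.27 for Cyp2a4 and -2.85 ± 1.03 for Cyp2b9. On the deposited scale Cyp2a4 (-4.30) and Cyp2b9 (-3.83) were called, with sample weights Cyp2a4 (-4.84), Cyp2b9 (-4.16) and Cyp2a22 (-2.15), and without ND nontumor 4 Cyp2b9 (-3.82). Over all genes, 14, 403 and 157 were called for this term in these settings, against 87 in the main fit.

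The nontumor libraries with the highest Cyp2a4 and Cyp2b9 in their groups were ND nontumor 4 and KD nontumor 2. Afp, a fetal liver gene often raised in liver cancer, was 1.82 TPM in ND nontumor 4 and 0.492 to 0.977 TPM in the rest of its group, against 11.3 to 44.5 TPM in ND tumors. Gpc3, another such marker, was 1.92 TPM there, and 0.306 to 1.85 TPM in the rest. In KD nontumor 2, Gpc3 was 4.24 TPM against 0.0827 to 1.48 TPM in the rest of the group and Afp was 2.42 TPM against 2.84 to 3.35 TPM. The 3 of 4 red blood cell markers listed summed to 5550 TPM in ND nontumor 4 and 892 to 2760 TPM in the rest of the group, and the 4 neutrophil markers to 97.3 TPM against 17.9 to 28.5 TPM. The part of tumor tissue or of other cells in these libraries' Cyp2a4 and Cyp2b9 levels was not tested.

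Likeness between patterns was measured by Pearson's r of log2(rescaled TPM + 1) over the 16 libraries, which fall into tumor and nontumor, so a high r largely states that genes share that split. The genes most like Cyp2a4 were Plxnb1 (a semaphorin receptor), Cyp2b9 and Elapor1, each with r = 0.95. Those most like Cyp2b9 were Tff3 (a secreted trefoil peptide, r = 0.96), Cyp2a4 and Akr1c18 (a steroid dehydrogenase, r = 0.94). Akr1c18 had means of 5.20 and 218 TPM in ND nontumor and tumor and 30.9 and 519 TPM on KD. Cyp2b13 was most like Sult2a2, a female-biased sulfotransferase (r = 0.85). Cyp2a5 was most like Lcat, the plasma enzyme of cholesterol esterification (r = 0.90), Cyp2a12 like Pon3, a lactonase (r = 0.89), and Cyp2a22 like Snrnp40, a splicing protein (r = 0.87). Among the members the 16-library r was 0.86 for Cyp2a5 with Cyp2a12 and -0.53 for Cyp2a4 with Cyp2a5.

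Within a tissue the same measure over 8 libraries was 0.92 in nontumor and 0.62 in tumor for Cyp2a4 with Cyp2b9. It was 0.74 and 0.86 for Cyp2a5 with Cyp2a12. Cyp2a4 with Cyp2a5 gave -0.39 in nontumor and 0.40 in tumor, so their opposition over all libraries was not seen among the tumors alone.

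**Figure D4:**
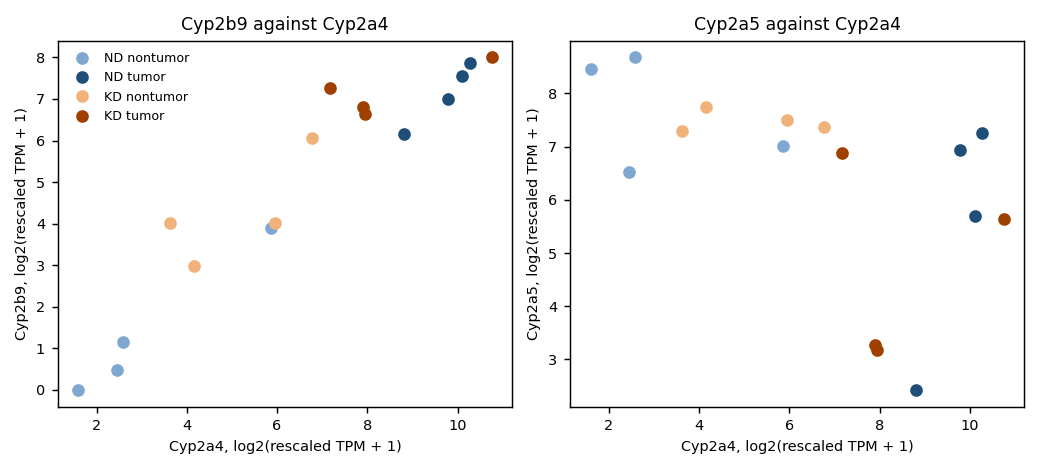
Each point is a library, with log2(rescaled TPM + 1) of Cyp2a4 on the x axis and of Cyp2b9 (left) or Cyp2a5 (right) on the y axis, coloured by group. Cyp2b9 increases with Cyp2a4 across the 16 libraries (r = 0.95), and Cyp2a5 does not (r = -0.53).

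Companion genes from 8 lists were tested in the same fit. For tumor against nontumor, 29% of all genes tested were called on ND and 33% on KD. The counts of each list below stand beside these shares. The 13 genes of P450 electron supply and heme synthesis fell in 8 cases and rose in 0 on ND, and fell in 6 and rose in 1 on KD, with medians of -0.61 and -0.39. Por, the reductase, fell from 123 to 28.9 TPM on ND (-2.01 ± 0.21, limma adjusted p = 4.31e-06) and from 135 to 40.6 TPM on KD (-1.71 ± 0.21, adjusted p = 2.43e-05). Alas1, the rate-limiting enzyme of heme synthesis, fell from 125 to 17.7 TPM on ND (-2.77 ± 0.29, adjusted p = 5.05e-06). Its level in KD tumors was higher than in ND tumors (1.12 ± 0.29, adjusted p = 0.0185). Cyb5r3, a cytochrome b5 reductase, was the gene that rose on KD (1.23 ± 0.22, adjusted p = 0.000686). With deposited values 1 of the list fell on ND and 2 on KD, and 0 rose.

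Of 22 regulators of Cyp2a and Cyp2b genes, 9 fell and 2 rose on ND, and 10 fell and 1 rose on KD, with medians of -0.38 and -0.44. Nr1i3, which encodes CAR, was 5.72, 8.85, 10.7 and 11.3 TPM in ND nontumor and 0.814, 1.88, 0 and 0.522 TPM in ND tumor libraries (-2.56 ± 0.27, limma adjusted p = 5.61e-06). On KD it was 20.3 to 26.8 TPM in nontumor and 0.824 to 1.85 TPM in tumor libraries (-3.46 ± 0.27, adjusted p = 4.41e-07). Nr1i2, encoding the xenobiotic receptor PXR, fell on ND (-0.74 ± 0.20, adjusted p = 0.0111) and on KD (-1.12 ± 0.20, adjusted p = 0.000624). Foxa2, a liver transcription factor, fell on both diets (-0.80 and -1.62, adjusted p = 0.00187 and 5.08e-06), while its relative Foxa3 rose on both (1.14 and 0.74, adjusted p = 0.000367 and 0.00769). Deposited values gave 1 fall and 0 rises on ND and 4 falls and 0 rises on KD, and a common sum 2 falls on ND and 11 on KD.

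Of 22 other CAR and PXR target genes, 13 fell and 0 rose on ND, and 11 fell and 1 rose on KD (medians -1.53 and -0.70). Cyp2c37, a P450 of lipid oxidation, went from 1044 to 5.16 TPM on ND (-7.85 ± 0.68, limma adjusted p = 7.31e-07). Cyp1a2, the caffeine oxidising P450, fell from 891 to 17.1 TPM (-5.79 ± 0.51, adjusted p = 7.9e-07). Abcc3, a bile acid and conjugate exporter, fell on KD (-1.17 ± 0.19, adjusted p = 0.000244). Deposited values gave 7 falls on ND and 8 on KD.

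The other female-biased liver genes did not move as a block with Cyp2a4, Cyp2b9 and Cyp2b13. Of 20 named, 9 passed the low-value limit; 3 rose and 5 fell on ND, and 4 rose and 3 fell on KD (medians -1.0 and 0.45). Cyp17a1, an enzyme of steroid synthesis, rose from 7.97 to 45.9 TPM on ND (2.37 ± 0.17, limma adjusted p = 7.99e-08). Abcd2, a peroxisomal fatty acid transporter, rose on KD from 4.89 to 22.7 TPM (2.30 ± 0.44, adjusted p = 0.00091). Cyp4a14, a fatty acid hydroxylase, fell from 184 to 0.199 TPM on ND (-6.87 ± 0.65, adjusted p = 1.87e-06), and Cyp2c69 (-3.74 ± 0.41, adjusted p = 6.5e-06) and the prolactin receptor Prlr (-2.07 ± 0.26, adjusted p = 2.85e-05) fell too.

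Male-biased genes moved almost all one way: 19 of 21 fell and 0 rose on ND, and 15 fell and 0 rose on KD (medians -3.04 and -2.05). Mup11, a major urinary protein, was 2740 to 7520 TPM in ND nontumor and 7.40 to 12.6 TPM in ND tumor libraries. Slco1a1, an organic anion transporter, fell from 76.5 to 3.17 TPM (-4.22 ± 0.28, limma adjusted p = 4.77e-08). Hsd3b5, a steroid reductase of male liver, fell from 69.4 to 0.292 TPM (-5.65 ± 0.39, adjusted p = 6.67e-08). Before rescaling, 13 fell on ND and 12 on KD. Reads of the Mup family are also shared between close copies.

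Of 12 genes of growth hormone signalling, 6 fell and 1 rose on ND and 9 fell and 0 rose on KD (medians -0.53 and -1.05). Ghr, the receptor, fell from 38.7 to 8.22 TPM on ND (-2.08 ± 0.29, limma adjusted p = 5.61e-05) and from 47.8 to 19.2 TPM on KD (-1.34 ± 0.29, adjusted p = 0.00211). Socs2, a feedback inhibitor induced by the hormone, fell on ND (-1.99 ± 0.24, adjusted p = 1.99e-05), as did Igf1, its secreted target (-2.49 ± 0.35, adjusted p = 7.53e-05). Bcl6, a repressor of female-biased liver genes, fell on KD from 25.5 to 10.5 TPM (-1.23 ± 0.23, adjusted p = 0.000952). Before rescaling, 1 rose and 1 fell on ND and 3 fell on KD.

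Of 15 pericentral hepatocyte genes, which mark the zone around the central vein, 15 fell on ND and 11 on KD, with 0 rises (medians -2.92 and -1.85). Glul, glutamine synthetase, fell from 256 to 31.6 TPM on ND (-2.92 ± 0.25, limma adjusted p = 7.31e-07). Slc1a2, a glutamate transporter, fell to 0.187 TPM on ND (-3.43 ± 0.24, adjusted p = 8.01e-08). On the deposited scale 9 of them fell on each diet.

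Among 13 tested genes around the cluster, 3 rose and 1 fell on ND, and 1 rose and 1 fell on KD, with medians of -0.06 and 0.07. The shares of all genes called were 29% and 33%, so these counts are near or below the background. Cyp2f2, the next P450 gene after Cyp2a12 and known for naphthalene oxidation, was 164 to 369 TPM in ND nontumor and 6.61 to 46.0 TPM in ND tumor libraries (-3.48 ± 0.48, limma adjusted p = 5.41e-05). On KD it was 251 to 356 TPM and 13.7 to 40.1 TPM (-3.92 ± 0.48, adjusted p = 2.42e-05). Coq8b, a gene of coenzyme Q synthesis, rose from 3.45 to 14.2 TPM on ND (1.79 ± 0.25, adjusted p = 6.75e-05) and on KD (1.57 ± 0.25, adjusted p = 0.000245). Cyp2g1, Cyp2b23, Cyp2t4 and Cyp2s1 were at most 1.35 TPM in each library.

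In tumors, KD against ND, 10 of 15 pericentral genes rose and 0 fell, and 4 of 21 male-biased genes rose and 0 fell, with medians of 1.16 and 0.85. Over all genes 16% were called and the median was 0.033, so the share of male-biased genes called was near the background. Gulo, an enzyme of ascorbate synthesis, rose from 34.2 to 97.7 TPM (1.48 ± 0.21, limma adjusted p = 0.000812). Of the CAR and PXR targets 5 rose and 3 fell. The largest falls named in that list were Gstm3, from 161 to 7.85 TPM (-4.07 ± 0.61, adjusted p = 0.0012), and Gstm1, from 3238 to 482 TPM (-2.63 ± 0.47, adjusted p = 0.00294), both glutathione transferases. Of the 22 regulators 4 rose, among them the clock gene Dbp (2.07 ± 0.54, adjusted p = 0.0188), and 0 fell, a share near the background. On the deposited scale 2 pericentral genes, 0 male-biased genes and 0 regulators rose. In nontumor liver 0 genes passed in 7 of the lists, and 1 female-biased gene fell, beside 0.053% of all genes called. With deposited values 2 regulators, 1 growth hormone signalling gene and 2 female-biased genes rose there, and 2 female-biased genes fell. On that scale 65 of all genes were called in nontumor liver.

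**Figure D5:**
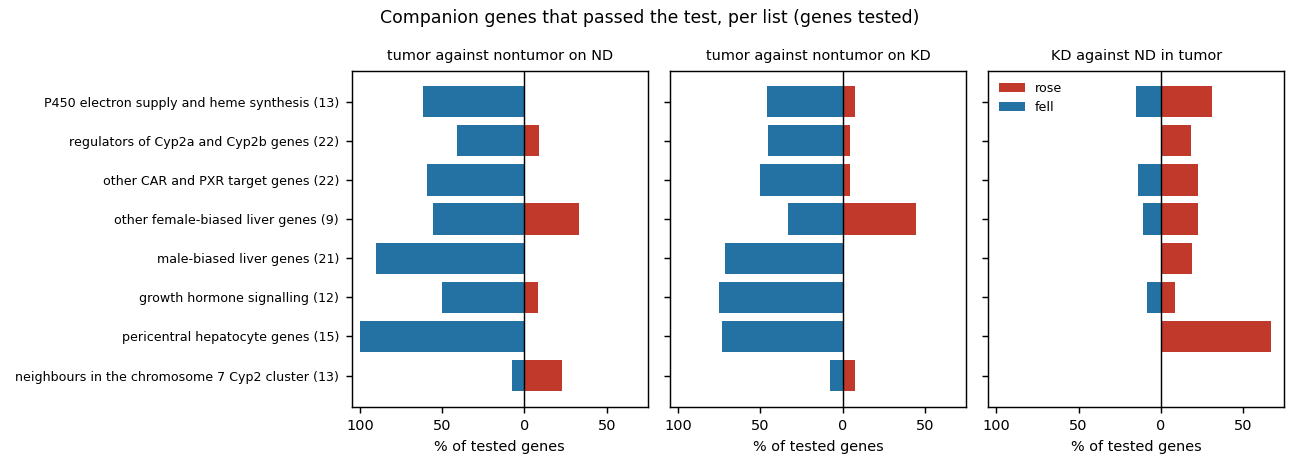
Bars give the percent of tested genes of each companion list (rows, with the number tested) that rose (right of 0) or fell (left of 0) in 3 comparisons at a limma adjusted p of 0.05. Male-biased and pericentral genes lie on the falling side in tumors on each diet (19 of 21 and 15 of 15 on ND), and the female-biased list is split.

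Markers of other liver cells differed between the tissues. The 5 Kupffer cell markers summed to 183 to 233 TPM in ND nontumor and 12.9 to 33.8 TPM in ND tumor, and to 93.2 to 154 TPM and 27.8 to 52.4 TPM on KD. Of these, Clec4f, Vsig4 and Timd4 fell on both diets and Cd5l fell on ND. Adgre1 was not called on ND (0.04 ± 0.29, limma adjusted p = 0.926) or KD (-0.08 ± 0.29, adjusted p = 0.843). Cd5l was not called on KD (-0.47 ± 0.40, adjusted p = 0.385). The 5 sinusoidal endothelial markers summed to 58.8 to 73.6 TPM and 33.8 to 48.7 TPM on ND, and to 49.3 to 78.8 TPM and 36.4 to 65.7 TPM on KD. Within that list on ND, Stab2 (-1.97 ± 0.22, limma adjusted p = 9.07e-06) and Clec4g (-2.94 ± 0.32, adjusted p = 6.93e-06) fell, while Pecam1 (1.47 ± 0.24, adjusted p = 0.000263) and Kdr (0.78 ± 0.21, adjusted p = 0.0112) rose. The 4 of 5 T cell markers listed summed to 3.72 to 4.86 TPM in ND nontumor and 4.90 to 21.6 TPM in ND tumor, and to 1.92 to 4.57 TPM and 3.6 to 10.7 TPM on KD. No marker of any of these lists was at 0 in every library of a group. Their part in the levels of the Cyp2a and Cyp2b genes was not tested.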

How the data were processed

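Polyadenylated RNA of 16 libraries, 4 in each of 4 groups from 8 mice, was measured by RNA-seq. The tools named per the submitters' processing notes are FastQC, HISAT2, SAMtools and featureCounts (versions not given), and the build is mm10. The authors deposited a table of TPM values for 20601 genes. How counts became TPM is not given in the sources used here. The nontumor columns carry a P where the titles carry N. No mitochondrially encoded gene is listed (0).

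TPM was divided by a median-of-ratios factor per library, taken from the 12119 genes with no value at 0, a pseudocount of 1 was added, and log2 values were fitted with limma 3.58.1 (R 4.3.3) with a variance trend, 4 group means, equal weights and no block. Genes at 1 TPM or more in at least 4 libraries entered, and adjusted p-values are Benjamini-Hochberg over all 13202 genes with a threshold of 0.05. Whole reads, recovered from the steps of the deposited TPM values for all 20601 genes (100.0%) within 0.001 of a whole number, gave depth, the level of 3 reads and a voom fit. Floors cover counting error only. The scripts were tested on simulated data.

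Members and gene lists were chosen with earlier results of these data known. Named companions are up to 4 genes per list and comparison with the smallest adjusted p, plus Nr1i3, Nr1i2, Por and Cyp2f2, and the 3 genes most correlated with each member, without predicted or clone names. Afp, Gpc3, Cd5l, Clec4g, Stab2, Pecam1, Kdr, Xist, Ddx3y, Cyp2d26, Oat, Cyp2c40, Cyp2g1, Cyp2b23, Cyp2t4 and Cyp2s1 were named after their values were seen. So were the hepatocyte markers Apoa1, Apob, Fgb, Ttr and Serpina1c and the Kupffer cell markers Clec4f, Vsig4, Timd4 and Adgre1. Sequences were compared with Biopython 1.88. The labels do not say which tumor and nontumor samples share a mouse, so p-values reflect only how these samples vary. Alternatives were the deposited scale, a common sum, a pseudocount of 0.1, no filter, only the groups compared, the replicate number as a block, sample weights, each library left out and, added after seeing the data, voom on the recovered reads.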

Additional observations from a re-analysis of the deposited data

Results flagged for a closer look

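In 5 of 23 member and group combinations of 4 libraries, a library lay farther from the rest than the 95% critical value of Dixon's test allows. The rule was applied to rescaled TPM without logs. Its nominal rate of about 1 in 20 need not hold here, because it assumes normal values and the members share libraries. Cyp2a4 was 56.8 TPM in ND nontumor 4, with 4.97 TPM the next highest in its group. Cyp2a4 was 1724 TPM in KD tumor 1, with 244 TPM the next. Cyp2b9 was 13.8 TPM in ND nontumor 4, with 1.21 TPM the next. Cyp2b9 was 65.6 TPM in KD nontumor 2, with 15.3 TPM the next. Cyp2b13 was 11.6 TPM in KD nontumor 2, with 0.489 TPM the next. These 3 libraries thus hold all 5 values, 2 of them in ND nontumor 4, 2 in KD nontumor 2 and 1 in KD tumor 1.

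For 11 of 161 companion and cell marker genes tested, the KD against ND difference was not the same in tumor and nontumor liver by the interaction term of limma. Of these 11 genes, 8 came from the 124 companion genes. Over all genes tested, 0.659% passed. With deposited values 0 genes passed in any of the 8 companion lists, and 14 passed over all genes, against 87 on the rescaled values. The interaction was 3.06 for Rgn, a calcium-binding protein (2.70 in tumor and -0.36 in nontumor, adjusted p = 0.0328), and 3.13 for Oat, ornithine aminotransferase (2.51 and -0.62, adjusted p = 0.0328). It was 1.85 for Gulo (1.48 and -0.37, adjusted p = 0.0169) and 1.73 for Glul (1.70 and -0.03, adjusted p = 0.0405). Mup11 gave 2.96 (2.20 and -0.76, adjusted p = 0.0223) and Cyp17a1 -1.65 (-1.29 and 0.36, adjusted p = 0.0169). The female-biased P450 genes Cyp2c40 and Cyp2c69 gave 3.41 (0.84 and -2.57, adjusted p = 0.0296) and 3.50 (-0.08 and -3.57, adjusted p = 0.0169). The Kupffer cell marker Cd5l gave 2.77 (1.72 and -1.04, adjusted p = 0.0382), and the sinusoidal endothelial markers Clec4g and Stab2 gave 2.15 (2.41 and 0.25, adjusted p = 0.0435) and 1.44 (1.16 and -0.28, adjusted p = 0.0482). No Cyp2a or Cyp2b member passed on the rescaled values, whereas Cyp2a4 (-4.30) and Cyp2b9 (-3.83) did on the deposited scale. These member calls are a description only.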

How the results depend on the processing

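The number of genes passing moved with the scale and with other settings. On the deposited scale the median difference of all genes was 0.42 and -0.26 for tumor against nontumor on ND and KD, 0.00 and 0.69 for the diets in tumor and nontumor, and -0.67 for the interaction. With a common sum it was 0.21, -0.25, -0.34, 0.10 and -0.46. In the same order the genes passing were 1418, 1111, 113, 65 and 14 on the deposited scale, against 3823, 4361, 2109, 7 and 87. The percent of calls that were higher was 50.5, 50.2, 46.0, 14.3 and 35.6, and on the deposited scale 77.2, 34.8, 34.5, 92.3 and 14.3, and with a common sum 70.6, 29.9, 9.51, 53.8 and 6.19. For the diets in nontumor liver the count was 13 with a common sum, 4 with a pseudocount of 0.1, 2 with only the groups compared and 465 with sample weights. For the interaction it was 549 with a common sum, 57 with a pseudocount of 0.1, 32 with no filter and 403 with sample weights. With voom on the recovered reads the counts were 3705, 4307, 2500, 6 and 82. The cause of these moves was not tested. Leaving out 1 library gave 1053 to 2513 genes for the diets in tumor (the lowest without KD tumor 3, with 1122 without KD tumor 4 and 1167 without ND tumor 1), 5 to 12 for the diets in nontumor and 9 to 157 for the interaction (the highest without ND nontumor 4).

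The replicate number as a block gave 30 genes for the interaction and counts within 1.5 times elsewhere. The call of Cyp2a5 on KD was also lost under the block. Same-numbered tumor and nontumor libraries correlated over 0.1 in 1 of 4 pairs on each diet, and 1 of 4 correlated best with its own number. Tumor and nontumor liver of the same mouse need not deviate together, so whether the numbers mark mice cannot be told from this.

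For the members, 694 of 714 differences under an alternative moved by no more than 1 spread of the libraries, and no called difference changed sign. Uncalled ones did: Cyp2a22 on KD was -0.16 and Cyp2b13 on KD -0.04 at the lowest. At 4 libraries in each group and 0 to 4 reads per library, Cyp2b10 is limited by depth, and Cyp2b13 depends on the pseudocount (4.66 on ND with 0.1).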
